A study of Mus musculus with 4 samples.

Results

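The growth hormone, IGF1 and insulin axis of the liver was followed through 10 genes in bulk tumour RNA: the growth hormone receptor Ghr with its signalling genes Stat5b and Socs2, the hormone gene Igf1, its carriers Igfals, Igfbp1, Igfbp2 and Igfbp3, and the receptor genes Igf1r and Insr. The genes were chosen by symbol, and all 10 were found among the 55487 genes of the deposited table. The tissue was hepatocellular carcinoma of 4 mice from an Alb-cre H11-myc line, in which a c-Myc transgene at the H11 locus gives spontaneous liver tumours and Cre is made from the albumin promoter, so that recombination is directed to hepatocytes. Per the labels, 2 mice were liver conditional knockouts of Tfrc, whose product is the transferrin receptor of iron uptake, and 2 were wild type with tumours of the same model. Strain, age and sex, and whether the wild type mice also carried Cre, are not given in the sources used here. Each library came from a separate mouse, and other cells of the tumour, such as endothelial cells, macrophages and stellate cells, keep Tfrc in this design. The design text gives the influence of Tfrc on the surroundings of the tumour cells as its question.

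Growth hormone from the pituitary binds its receptor on hepatocytes and activates the kinase JAK2, which phosphorylates STAT5B. STAT5B drives Igf1, Igfals and the feedback inhibitor Socs2. The liver is the main source of circulating IGF1, which travels in a complex with IGFBP3 and the acid-labile subunit encoded by Igfals, while IGFBP1 and IGFBP2 bind it without that subunit. Insulin acts through the insulin receptor on the same cells and represses Igfbp1 through the transcription factor FOXO1. Adult hepatocytes carry abundant insulin receptor and little IGF1 receptor. In bulk tissue, fewer cells of a type and less RNA per cell cannot be told apart, and this holds for every value below.

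The stretches below are shown because they carry the letters through which growth hormone and insulin are known to reach 2 of these genes, and because Igfbp3 lies beside Igfbp1 without them. They come from the RefSeq promoter windows of GRCm38.p6 (13 windows for 8 of the 10 genes, with none for Socs2 and Insr), hold no annotated exon of the gene, and run 5′ to 3′ on the strand of the gene. Capitals mark TTCNNNGAA, the core bound by STAT5, GTAAACA, a forkhead core, or CAAAACA, the core of the insulin response sequence bound by FOXO1, searched on both strands.
Igfals, chr17:24877981-24878214, plus strand: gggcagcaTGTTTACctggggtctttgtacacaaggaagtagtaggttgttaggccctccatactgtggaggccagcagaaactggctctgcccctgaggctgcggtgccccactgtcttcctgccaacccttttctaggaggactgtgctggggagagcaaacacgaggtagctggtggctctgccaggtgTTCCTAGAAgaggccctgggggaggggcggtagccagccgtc
Igfbp1, chr11:7197537-7197781, plus strand: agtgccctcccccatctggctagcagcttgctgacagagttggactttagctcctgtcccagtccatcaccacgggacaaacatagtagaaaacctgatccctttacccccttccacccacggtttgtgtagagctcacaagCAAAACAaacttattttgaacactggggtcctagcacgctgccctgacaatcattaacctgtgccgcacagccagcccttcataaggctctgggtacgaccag
Igfbp3, chr11:7213924-7214173, minus strand: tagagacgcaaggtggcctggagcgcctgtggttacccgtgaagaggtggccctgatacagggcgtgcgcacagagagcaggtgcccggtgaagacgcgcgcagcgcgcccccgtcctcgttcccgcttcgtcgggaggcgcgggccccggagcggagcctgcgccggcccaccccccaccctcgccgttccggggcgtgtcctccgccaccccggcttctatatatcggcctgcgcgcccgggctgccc

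In the Igfals stretch the STAT5 core TTCCTAGAA lay at -58 to -50 from the second of 3 RefSeq start sites, and TGTTTAC, the forkhead core on the other strand, lay at -242 to -236. The Igfals window farthest upstream held another STAT5 core, TTCTCAGAA, at -236 to -228, and no other member window held the STAT5 or the forkhead core. In the Igfbp1 stretch the insulin response core lay at -108 to -102, and it was the only member window with that core. Among all 32851 promoter windows of the same length, 8.3% held the STAT5 core, 6.28% the insulin response core and 3.65% the forkhead core. These matches are letters in a window and not measured binding. Igfbp1 and Igfbp3 face each other on chromosome 11, with 3539 bases between their 3′ ends.

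Total counts ranged from 15918349 to 17052943 per library. Tfrc itself stood at 459.7 CPM (counts scaled to a common library size with TMM factors) in wild type replicate 1 and 234 CPM in replicate 2, against 334 and 205 CPM in the knockout. The groups overlapped, and the labels name no deleted exons, so Tfrc did not check the labels, and a direction given below compares libraries as they were labelled. All 11 hepatocyte markers found were counted in every library, with a summed level of 15160 and 48220 CPM in the wild type and 37120 and 34290 CPM in the knockout. Of these, Alb stood at 5376 and 29460 CPM in the wild type, so the hepatocyte markers differed more between the wild type mice than between the groups. Myc stood at 53.7 to 86.4 CPM over the 4 libraries. Xist had 2 or 3 counts in each library, and the Y-linked genes Ddx3y, Uty, Kdm5d and Eif2s3y were counted in all 4.

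No member passed the threshold between the groups. All 10 were above the filter on low counts, and by edgeR's quasi-likelihood test 0 were called higher and 0 lower, on a background of 0% of 16310 tested genes, with a smallest adjusted p among the members of 0.587. By DESeq2 0 members were called as well, against 0.907% of tested genes. At an unadjusted edgeR p under 0.05 there were 2 members, Igfals and Igfbp3, both lower, where 4.35% of tested genes were lower at that level, and 0 were higher, against 3.95%. Both knockout libraries lay above both wild type libraries for Ghr, Igf1 and Insr, 3 of 10 against 21.9% of tested genes. They lay below for Igfals and Igfbp3, 2 of 10 against 20.1%, so the groups were apart for 5 of 10 members and for 42% of tested genes. For 9 of 10 members, all but Ghr, the larger fold between mice of 1 group exceeded the fold between the group means, as it did for 73.2% of tested genes. The median log2 fold change was 0.10 over the members and 0.01 over all tested genes. All log2 fold changes are knockout minus wild type.

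**Figure D1:**
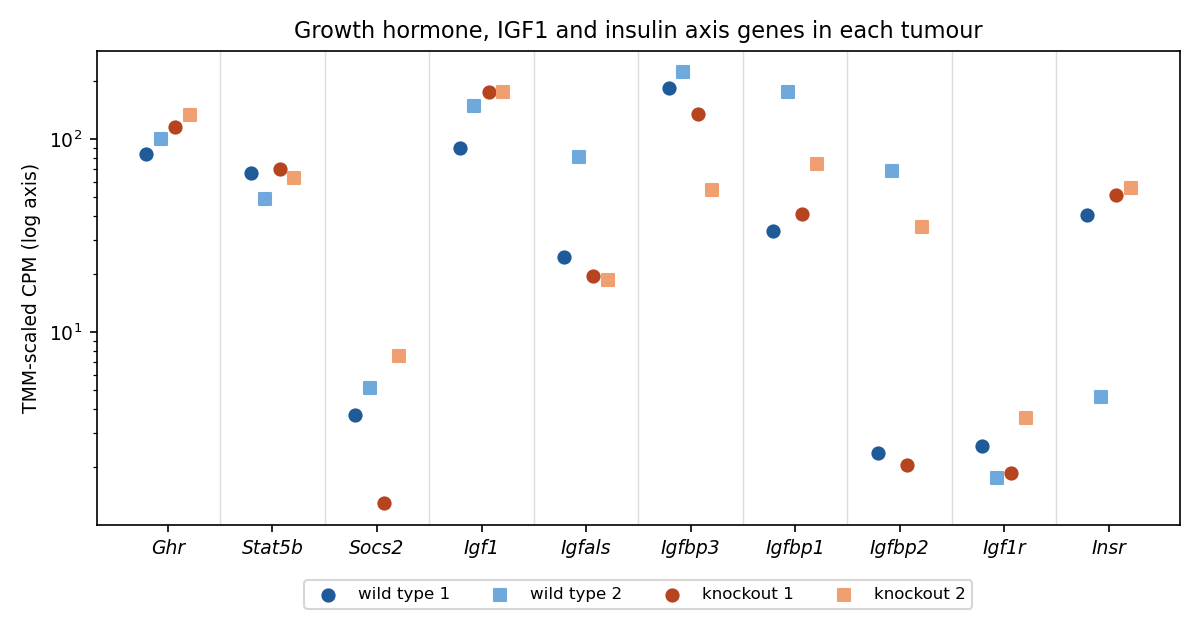
Level of each of the 10 genes in the 4 libraries, as TMM-scaled CPM on a log axis, with 1 point per mouse. Ghr spans 84.2 to 134 CPM and Stat5b 49.1 to 70.3 CPM, while Igfbp2 spans 2.04 to 68.2 CPM and Insr in wild type replicate 2 lies at 4.61 CPM, below the other 3 libraries.

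Ghr, the receptor through which the liver senses growth hormone (ENSMUSG00000055737, chromosome 15, 3317760 to 3583492), stood at 84.2 CPM in wild type replicate 1, 101 CPM in wild type replicate 2, 116 CPM in knockout replicate 1 and 134 CPM in knockout replicate 2. Values of other genes follow in the same order. Both knockout libraries lay above both wild type libraries by a narrow margin. The fitted log2 fold change came to 0.44 (SE 0.30, 95% interval from -0.26 to 1.14, edgeR adjusted p = 0.692). Stat5b, the transcription factor that carries the signal to the nucleus (ENSMUSG00000020919, chromosome 11, 100780731 to 100850724), stood at 66.7 and 49.1 CPM in the wild type and 70.3 and 62.8 CPM in the knockout. Its groups overlapped, with wild type replicate 2 the lowest, and its log2 fold change was 0.20 (95% interval from -0.52 to 0.92, edgeR adjusted p = 0.868). Stat5b had the narrowest intervals of the members together with Ghr and Igf1.

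Socs2, the inhibitor that STAT5B induces and that ends receptor signalling (ENSMUSG00000020027, chromosome 10, 95385362 to 95417180), was scarce, with 68 and 79 counts for the wild type mice and 21 and 119 for the knockout mice. These are 3.70 and 5.13 CPM against 1.295 and 7.505 CPM. The knockout libraries held both the lowest and the highest value and differed 5.79-fold from each other. The group means were 4.42 ± 1.01 and 4.4 ± 4.39 CPM (SD, n = 2 each). The log2 fold change was -0.01 with a 95% interval of -1.88 to 1.87, and it was -1.76 without knockout replicate 2 and 0.74 without knockout replicate 1.

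Among other genes of growth hormone receptor signalling no call was made. Of 17 tested, 8 had log2 fold changes above 0 and 9 below 0 (median -0.05), and 0 were called. The knockout libraries lay above the wild type for 6 and below for 2, where 21.9% and 20.1% of all tested genes did. For 12 of 17 the larger fold within a group exceeded the fold between the group means. Socs3, an inhibitor of cytokine receptors, stood at 28.2 ± 9.46 CPM in the wild type and 15.99 ± 2.54 CPM in the knockout. Bcl6, a repressor that opposes STAT5 at liver genes, stood at 19.0 ± 3.17 and 29.3 ± 7.69 CPM. Socs1, also a cytokine inhibitor, had a log2 fold change of 1.02 at a low level (2.14 against 4.36 CPM), and the JAK2 adaptor gene Sh2b1 had 0.41. The edgeR adjusted p of these 4 genes lay between 0.627 and 0.712.

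Igf1, the hormone gene at the centre of the axis (ENSMUSG00000020053, chromosome 10, 87858265 to 87937042), stood at 89.5 and 149.6 CPM in the wild type and at 175.7 and 176.4 CPM in the knockout. The knockout libraries lay above the wild type, and wild type replicate 1 was the lowest of the 4. The means were 119.6 ± 42.5 and 176 ± 0.521 CPM, with a log2 fold change of 0.56 (SE 0.35, 95% interval from -0.27 to 1.39, edgeR adjusted p = 0.675). Leaving out wild type replicate 1 gave 0.21, and leaving out wild type replicate 2 gave 0.98. Macrophages also express Igf1, and the summed level of the 12 markers of Kupffer cells and macrophages was 943 and 1281 CPM in the wild type and 578 and 316 CPM in the knockout, opposite in direction to Igf1. The part of these cells in the Igf1 level was not tested. The antisense gene Igf1os, which overlaps Igf1 on the other strand, had 3 to 14 counts per library.

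Igfals, which encodes the acid-labile subunit that holds IGF1 and IGFBP3 in the circulation (ENSMUSG00000046070, chromosome 17, 24865997 to 24882010), stood at 24.6 and 80.8 CPM in the wild type and at 19.5 and 18.7 CPM in the knockout. Both knockout libraries lay below the wild type, but wild type replicate 1 was close to them and wild type replicate 2 was 3.28-fold above wild type replicate 1. The means were 52.7 ± 39.7 and 19.1 ± 0.582 CPM, with a log2 fold change of -1.46 (SE 0.55, 95% interval from -2.76 to -0.17, edgeR adjusted p = 0.587). Leaving out wild type replicate 2 gave -0.37. Leaving out wild type replicate 1 gave -2.11, with wild type replicate 2 then alone in its group. Between the groups Igfals lay lower and Igf1 higher in the libraries labelled knockout, while between the wild type mice both genes lay higher in replicate 2. Per length, the ratio of Igfals to Igf1 was 0.860 and 1.69 for the wild type mice and 0.347 and 0.331 for the knockout mice over merged exons. In both knockout libraries this ratio lay below both wild type libraries, and the exact permutation test gave p = 0.333 (two-sided), the smallest that 2 against 2 libraries allow. This ratio was chosen after the values were seen.

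Igfbp3, the main carrier of IGF1 in blood (ENSMUSG00000020427, chromosome 11, 7206086 to 7213923), stood at 185 and 222.5 CPM in the wild type and at 135 and 54.5 CPM in the knockout. Both knockout libraries lay below the wild type, knockout replicate 2 by the wider margin. The means were 204 ± 26.7 and 94.8 ± 57.0 CPM, with a log2 fold change of -1.10 (SE 0.46, 95% interval from -2.20 to -0.01, edgeR adjusted p = 0.600). It was -1.92 without knockout replicate 1 and -0.59 without knockout replicate 2. In liver Igfbp3 is made largely by non-parenchymal cells. The summed level of 12 endothelial markers was 186 and 232.5 CPM in the wild type and 138.5 and 114 CPM in the knockout, and that of the macrophage markers was also lower in both knockout libraries. Of the tested markers, 10 of 12 endothelial and 12 of 12 macrophage genes had a negative log2 fold change, and edgeR called 0. In each list the knockout libraries lay below the wild type for 7 and above for 0, where 20.1% and 21.9% of tested genes did. DESeq2 called 2 macrophage and 0 endothelial genes, and 0.907% of tested genes. Among the negative genes were the sinusoidal gene Stab2 with -1.18 (SE 0.375) and the endothelial gene Vwf with -1.54 (SE 0.57). The macrophage receptor gene Csf1r had -1.41 (SE 0.32), and the edgeR adjusted p of these genes lay between 0.545 and 0.586. The endothelial gene Cdh5 had -0.50 (SE 0.38, edgeR adjusted p = 0.718). The 10 stellate cell and fibroblast markers summed to 1413 and 1240 CPM in the wild type and 641.5 and 1187 CPM in the knockout. Of these, 7 of 10 had log2 fold changes below 0, and the knockout libraries lay below for 4 and above for 0. The groups overlapped for 6 of 10, and for 9459 of 16310 tested genes. By edgeR 0 of these markers were called, and by DESeq2 1. Of the defining markers, Clec4f of Kupffer cells and Clec4g of sinusoidal endothelium had 0 counts in wild type replicate 1 and Timd4 had 0 in knockout replicate 1. The part of these cells in the Igfbp3 level was not tested.

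Igfbp1, the carrier that insulin represses (ENSMUSG00000020429, chromosome 11, 7197782 to 7202546), followed another order than its neighbour Igfbp3. It stood at 33.4 and 175 CPM in the wild type and at 41.0 and 74.1 CPM in the knockout. Wild type replicate 1 was the lowest and wild type replicate 2 the highest of the 4, a 5.24-fold difference between mice of 1 group, so the groups overlapped. The log2 fold change was -0.86 (SE 0.71, 95% interval from -2.55 to 0.83, edgeR adjusted p = 0.747), and it was 0.78 without wild type replicate 2. Igfbp3 differed 1.205-fold between the same wild type mice.

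Igfbp2, a carrier that is high in fetal liver and in liver cancers (ENSMUSG00000039323, chromosome 1, 72824503 to 72852474), varied most between mice of the same label. It stood at 2.34 and 68.2 CPM in the wild type and at 2.04 and 34.9 CPM in the knockout. Both replicates 1 were low and both replicates 2 were high, with 29.1-fold and 17.2-fold differences within the groups. The means were 35.3 ± 46.6 and 18.5 ± 23.3 CPM, and the log2 fold change was -0.93 with a 95% interval of -4.47 to 2.61 (edgeR adjusted p = 0.874). Leaving out wild type replicate 2 gave 2.98, and leaving out knockout replicate 2 gave -4.11. A fold of at least 10 within a group was seen in 1 of the 10 members and in 2.92% of tested genes, and a fold of at least 4 in 4 of 10 (Igfbp1, Igfbp2, Socs2 and Insr) and in 8.69%.

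The fetal growth factor gene Igf2 had the same order of libraries as Igfbp2 in each group. It stood at 20.04 and 2213 CPM in the wild type and at 245.7 and 1853 CPM in the knockout. The difference was 110-fold within the wild type, wider than that of Igfbp2, and 7.54-fold within the knockout, narrower than that of Igfbp2. The log2 fold change between the groups was -0.09 (SE 1.64), with a sign that turned to 0.01 when library totals replaced TMM. Of the 11 hepatocyte markers, Cyp2e1, a cytochrome P450 of mature pericentral hepatocytes, stood at 2.505 and 355 CPM in the wild type and 34.2 and 653 CPM in the knockout, lower in both replicates 1. The list as a whole did not share this order, since its sum was lower in replicate 1 of the wild type but higher in replicate 1 of the knockout, at 37120 against 34290 CPM. The sum of the macrophage markers was likewise lower in replicate 1 of the wild type and higher in replicate 1 of the knockout. Whether the makeup of the tissue bears on Igfbp2 and Igf2 was not tested. Per length over merged exons, Igf2 lay at 0.387 and 25.6 times Igf1 in the wild type and 2.42 and 18.2 times in the knockout. Igf1 exceeded Igf2 in wild type replicate 1 by this measure and lay below it in the other 3 libraries. In the deposited FPKM the ratios were 0.224, 14.8, 1.40 and 10.5 in the same order. The log2 ratio differed by 1.08 between the groups in both units (exact permutation p = 1, two-sided), and without wild type replicate 1 by -1.95.

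The remaining genes of the IGF system gave no call either. Of 16 found, 12 were tested, of which 4 had log2 fold changes above 0 and 8 below 0 (median -0.21), and 0 were called. The knockout libraries lay below the wild type for 4 and above for 0, where 20.1% and 21.9% of all tested genes did. Stc1, which encodes stanniocalcin 1, an inhibitor of the protease that cleaves IGF carriers, stood at 8.71 and 17.8 CPM in the wild type and 4.69 and 2.33 CPM in the knockout (log2 fold change -1.91, SE 0.55). The secreted protease gene Htra1 had a log2 fold change of -1.37 (SE 0.41), and the fetal RNA-binding protein gene Igf2bp3 had -0.90 (SE 0.47). Igf2r, the receptor that clears IGF2, stood at 108 ± 0.362 CPM in the wild type and 60.2 ± 9.81 CPM in the knockout (log2 fold change -0.85, SE 0.29). The edgeR adjusted p of these 4 genes lay between 0.547 and 0.635. Pappa2 had 0 counts in every library.

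**Figure D2:**
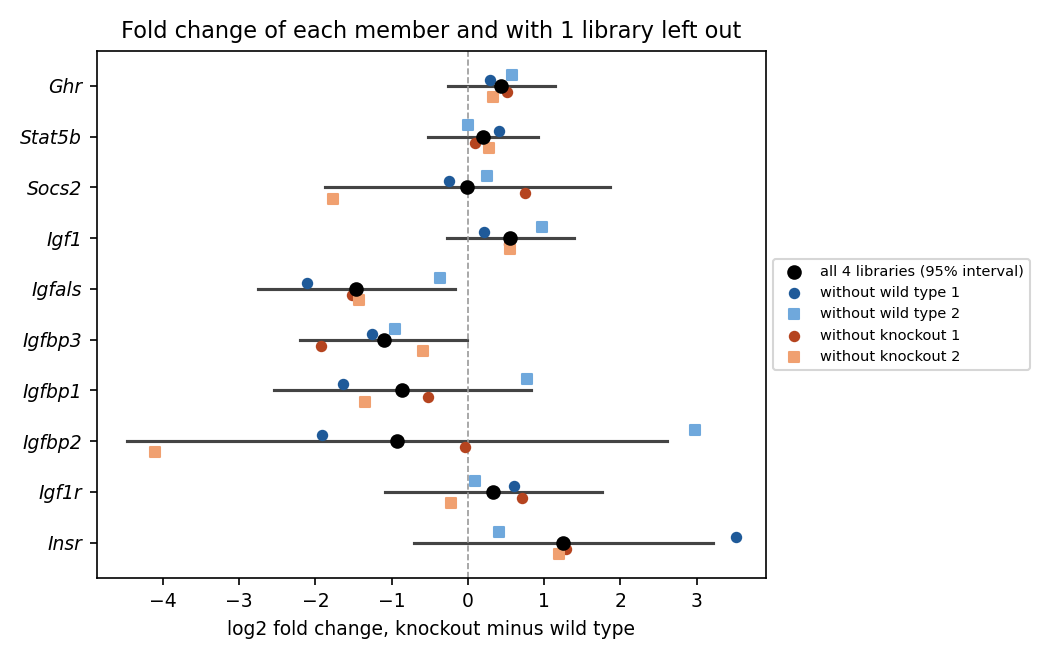
Log2 fold change (knockout minus wild type) of each member with its 95% interval from the edgeR fit to all 4 libraries in black, and with 1 library left out in colour. The points of Igfbp1, Igfbp2, Socs2, Stat5b and Igf1r fall on both sides of 0, and those of Ghr, Igf1, Insr, Igfals and Igfbp3 stay on 1 side.

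Insr, the insulin receptor gene (ENSMUSG00000005534, chromosome 8, 3122061 to 3279617), was set apart by a single mouse. It had 742 and 71 counts for the wild type mice and 834 and 884 for the knockout mice, or 40.4 and 4.61 CPM against 51.4 and 55.8 CPM. Wild type replicate 2 lay 8.76-fold below wild type replicate 1, while the other 3 libraries lay within a narrow band. The means were 22.5 ± 25.3 and 53.6 ± 3.05 CPM, with a log2 fold change of 1.25 (SE 0.83, 95% interval from -0.71 to 3.21, edgeR adjusted p = 0.687). Leaving out wild type replicate 2 gave 0.41. Leaving out wild type replicate 1 gave 3.51, with wild type replicate 2 then alone in its group.

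Transcript length moved with this library. In the quartile of tested genes with the longest merged exons (at least 6129 bp), the median log2(CPM + 1) of wild type replicate 2 lay 0.36 below the mean of the other 3 libraries (a difference of -0.36), and in the shortest quartile (up to 2097 bp) it lay 0.24 above. The same 2 medians were 0.12 and -0.07 for wild type replicate 1, 0.13 and -0.08 for knockout replicate 1, and 0.16 and -0.05 for knockout replicate 2. Insr has 13746 bp of merged exons and differed by -3.15. Only 16 of 16310 tested genes, and 5 of the 4074 in the longest quartile, differed by more in that direction. Igf1r, with 16791 bp the longest member, differed by -0.39, Igf1 by 0.09 and Socs2 by 0.44. Ghr differed by -0.12 and Stat5b by -0.43. The shorter carriers Igfbp2, Igfals, Igfbp1 and Igfbp3 differed by 3.28, 1.91, 1.89 and 0.9975. The part of transcript length in these values was not tested.

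**Figure D3:**
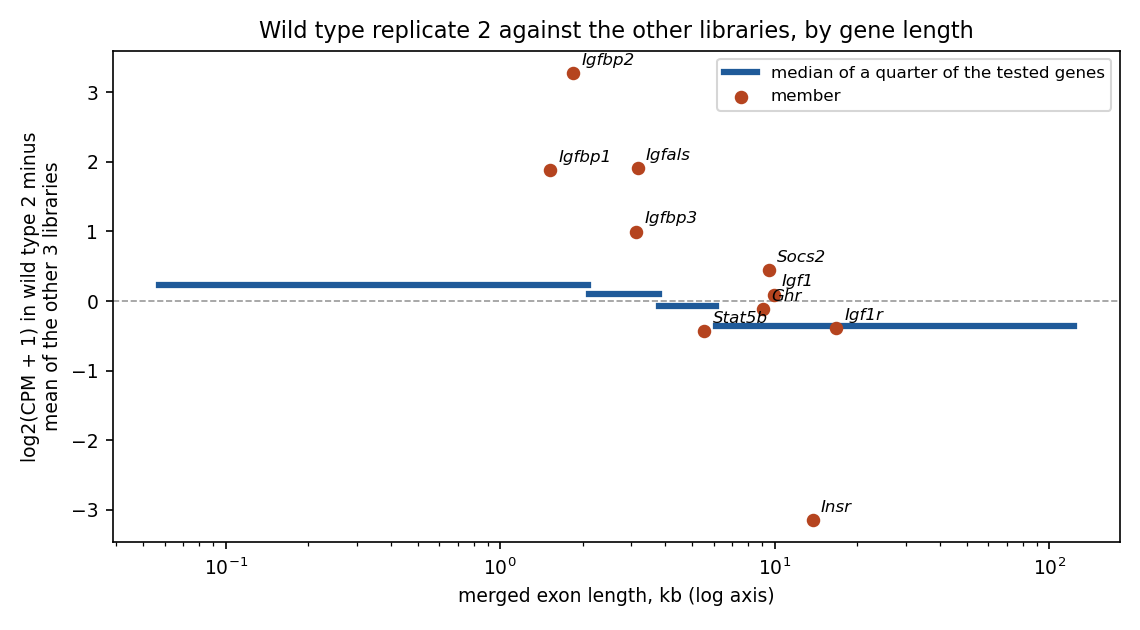
Difference of wild type replicate 2 from the mean of the other 3 libraries, in log2(CPM + 1), against merged exon length in kb on a log axis. Bars give the median of each quartile of tested genes and span its lengths, and points are the 10 members, with Insr at -3.15 below its quartile's median of -0.36 and Igfbp2 at 3.28.

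Igf1r, the receptor for IGF1 itself (ENSMUSG00000005533, chromosome 7, 67952827 to 68233668), was barely counted, with 47 and 27 counts for the wild type mice and 30 and 57 for the knockout mice. These are 2.56 and 1.75 CPM against 1.85 and 3.60 CPM. The groups overlapped, and the log2 fold change was 0.33 (SE 0.60, 95% interval from -1.09 to 1.76, edgeR adjusted p = 0.887), turning to -0.22 without knockout replicate 2. In deposited FPKM, Igf1r lay at 0.0509 and 0.306 times Insr in the wild type and at 0.0289 and 0.0518 times in the knockout. Insr exceeded Igf1r in all 4 libraries, least in wild type replicate 2. The log2 ratio differed by -1.69 between the groups (exact permutation p = 0.667, two-sided), and by -0.40 without wild type replicate 2.

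Levels of different genes are compared only per length, and the values that follow are unscaled CPM per kilobase of merged exons. By the median over the 4 libraries Igfbp3 was highest at 54.1, followed by Igfbp1 at 37.1, Igf1 at 15.4, Stat5b at 11.9, Ghr at 11.8, Igfbp2 at 9.84, Igfals at 7.48, Insr at 3.55, Socs2 at 0.460 and Igf1r at 0.141. Igf1r was the lowest member in each of the 4 libraries. Igfbp3 was highest in wild type replicate 1 and knockout replicate 1, and Igfbp1 was highest in wild type replicate 2 and knockout replicate 2. The ranges over libraries of Igf1 (10.1 to 18.1), Stat5b (8.004 to 13.5) and Ghr (10.1 to 14.3) overlapped, and those of Igfbp3 (16.8 to 66.0) and Igfbp1 (24.5 to 104) did as well. Igfbp2 ranged from 1.12 to 33.3 and crossed most of the order. Of the other carriers, Igfbp4 (73.5 to 166.5) and Igfbp7 (64.7 to 189) lay above Igfbp3 in every library.

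**Figure D4:**
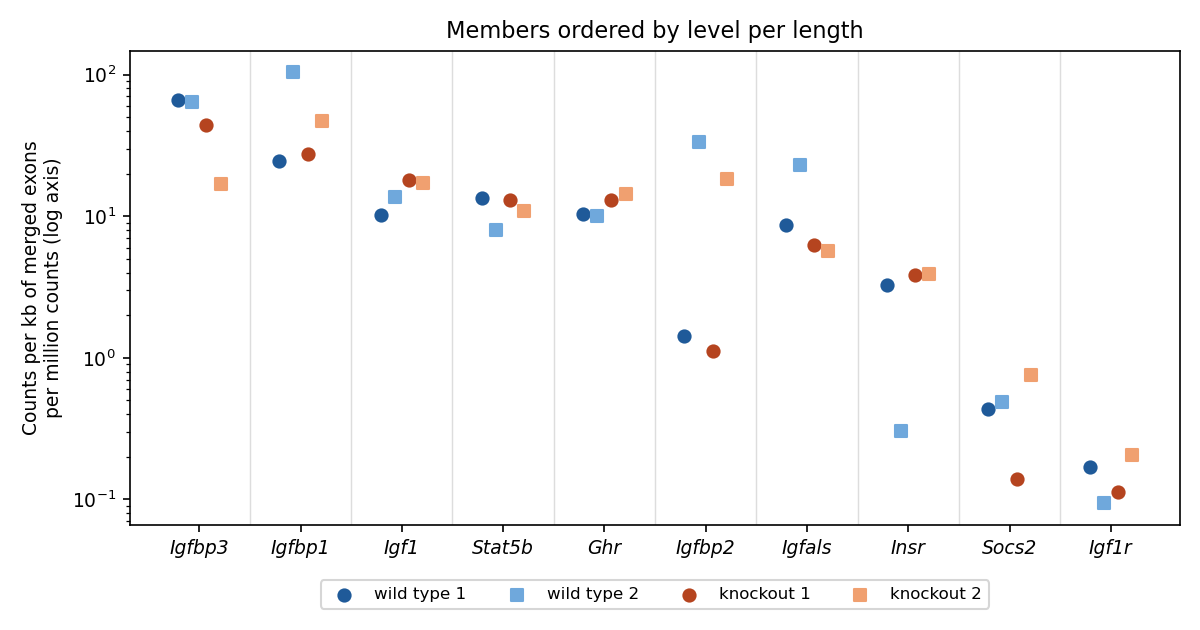
Level of each member per length (unscaled CPM per kilobase of merged exons, log axis), ordered by the median over the 4 libraries, with 1 point per mouse. Igfbp3 and Igfbp1 lead with medians of 54.1 and 37.1, and Igf1r is last at 0.141.

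Genes of the pathway below the insulin and IGF1 receptors showed no call. Of 33 substrate, kinase and phosphatase genes 32 were tested, 14 with log2 fold changes above 0 and 18 below 0 (median -0.02), and Irs4 had 0 counts. The knockout libraries lay above the wild type for 7 and below for 2, where 21.9% and 20.1% of all tested genes did. Rictor, which encodes a subunit of the kinase complex that phosphorylates AKT, had a log2 fold change of 0.79 (SE 0.36), and Tsc1, an inhibitor of mTORC1, had 0.78 (SE 0.37). Leaving out wild type replicate 2 gave 0.50 and 0.43 for these genes, and leaving out wild type replicate 1 gave 1.13 and 1.23. The S6 kinase gene Rps6kb1 stood at 40.1 ± 8.51 and 61.6 ± 0.484 CPM. Grb10, an adaptor that inhibits the insulin receptor, stood at 27.1 and 139 CPM in the wild type and 16.96 and 38.7 CPM in the knockout, with a log2 fold change of -1.58 that was 0.04 without wild type replicate 2. The edgeR adjusted p of these 4 genes lay between 0.626 and 0.633.

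Among liver genes that insulin regulates, 0 were called and 0 had an unadjusted edgeR p under 0.05. Of 12 tested, 11 had log2 fold changes above 0 (median 0.44), as did 8220 of all 16310 tested genes. The knockout libraries lay above the wild type for 6 and below for 0, where 21.9% and 20.1% of tested genes did. The list joins genes that insulin induces and genes that it represses. Among the induced genes, the lipogenic regulator gene Srebf1 stood at 136 ± 25.4 and 195 ± 21.5 CPM, and Scd1, a fatty acid desaturase, stood at 1715 ± 493 and 3013 ± 753 CPM. The fatty acid synthase gene Fasn had a log2 fold change of 0.51 (SE 0.38). Among the repressed genes, G6pc, the last enzyme of glucose release, had 0.67 (SE 0.37). The edgeR adjusted p of these 4 genes lay between 0.651 and 0.718.

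The sex-dependent liver programme, which follows the pattern of growth hormone release, gave mixed values in these tumours. Of 15 tested male-biased genes, 8 had log2 fold changes above 0 and 7 below 0 (median 0.57), with the knockout libraries above for 2 and below for 3. Selenbp2 stood at 112 ± 30.7 CPM in the wild type and 263 ± 23.8 CPM in the knockout. The complement gene C6 had a log2 fold change of -1.30 (SE 0.38), the fatty acid hydroxylase gene Cyp4a12b -1.55 (SE 0.47) and the oxysterol hydroxylase gene Cyp7b1 -1.11 (SE 0.51). Of 13 tested female-biased genes, 9 were positive (median 0.94), with the knockout libraries above for 6 and below for 2. Over all tested genes the shares were 21.9% above and 20.1% below. At an unadjusted edgeR p under 0.05, 6 female-biased genes were higher and 1 lower, and 1 male-biased gene was higher and 2 lower. The shares of tested genes at that level were 3.95% higher and 4.35% lower. The sulfotransferase gene Sult2a1 stood at 2.40 and 4.42 CPM in the wild type and 23.8 and 14.6 CPM in the knockout, and the P450 gene Cyp2b9 stood at 0.109 and 0.715 CPM against 13.6 and 1.45 CPM. Tox, which encodes a nuclear protein also made by lymphocytes, had a log2 fold change of 2.17 (SE 0.65). Prom1, also a progenitor marker, had -3.74 (SE 1.12), with 31.1 CPM in wild type replicate 2 and at most 2.40 CPM elsewhere. By edgeR 0 genes of either list were called, with adjusted p values between 0.434 and 0.623 for these 8 genes. DESeq2 called Sult2a1, Cyp2b9 and Prom1, where it called 0.907% of all tested genes. Without wild type replicate 1 edgeR also called Prom1 (log2 fold change -4.66), and without wild type replicate 2 its log2 fold change was -0.94. Sult2a1, Cyp2b9, Cyp4a12b and Selenbp2 have close relatives that may share reads, so their counts are uncertain.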

How the data were processed

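mRNA libraries of 4 tumours were sequenced. The authors deposited whole-number counts and FPKM for 55487 genes. The submitters' processing notes list StringTie, HISAT2, edgeR and SAMtools 1.3.1, and the build mm10, without roles. The sources used here do not give strandedness, so antisense reads cannot be told apart. The deposited FPKM equalled the count over a fixed length and the column total within 1% in 100% of genes that reached 10 counts in each library. Symbols and spans are from GENCODE M21 (GRCm38), and the span of every member matched.

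Genes were filtered with filterByExpr (16310 left), given TMM factors and compared by edgeR's quasi-likelihood test (edgeR 4.0.16, R 4.3.3; two-sided; Benjamini-Hochberg over all tested genes; threshold 0.05). Values are TMM-scaled CPM. A floor of 3 counts is 0.163 to 0.195 CPM. With 2 mice per group the spread is largely pooled over genes. The test was also run on simulated counts with known changes, and the outcome is not reported here. The simulation held no deviating library, so it does not cover a library like wild type replicate 2.

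Alternatives were DESeq2 size factors or library totals, no filter, a minimum mean of 5 CPM, limma-voom (limma 3.58.1), DESeq2 1.42.0, a replicate block and leaving out each library. A fit without a library assumes that the lone sample varies like the other group.

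Members and lists were chosen with earlier results of these data known. Named genes are the members, Tfrc, Myc, Alb, Igf2 and up to 4 tested genes of each list by smallest unadjusted p, with the 2 highest by mean CPM of each cell type list. Genes with a clone or predicted name are not named. Xist, the Y-linked genes, genes at 0, Igfbp4, Igfbp7, Igf1os, Clec4f, Clec4g and Timd4 fall outside this rule and were chosen after their values were seen. Cell type lists are given by counts and summed level.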

Additional observations from a re-analysis of the deposited data

How the results depend on the processing

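No setting gave a call for a member except leaving out wild type replicate 1, which called Insr higher and Igfals lower, so the number of members called over the fits without a library was 0 to 1 in each direction. Over all genes, DESeq2 called 63 higher and 85 lower, library totals 0 and 1, limma-voom 0 and 1, and fits without a library 0 to 118 higher and 0 to 104 lower. Of the 10 members, 5 kept the sign of their log2 fold change in all 11 alternatives (Ghr, Igf1, Igfals, Igfbp3 and Insr). The other 5 turned only when a library was left out, over -1.63 to 0.78 for Igfbp1, -4.11 to 2.98 for Igfbp2, -1.76 to 0.74 for Socs2, -0.0038 to 0.41 for Stat5b and -0.22 to 0.71 for Igf1r. The ranges were -2.18 to 5.71 for Igf2, -0.78 to 0.18 for Tfrc, -0.40 to 0.31 for Myc, -0.63 to 1.85 for Alb, -2.39 to 7.10 for Cyp2e1 and -2.35 to 0.0361 for Grb10. Igf2, at -0.09, turned to 0.0136 with library totals, 1.63 with limma-voom and 1.67 with the replicate block. Myc, at 0.01, turned to -0.0086 with DESeq2 size factors, -0.0087 with DESeq2, -0.0321 with library totals and with no filter, -0.019 with limma-voom and -0.0183 with the replicate block. The cause of these changes was not tested. The median of the members ran from -0.41 to 0.33 over the fits without a library, and a mean of 5 CPM, which removes Socs2 and Igf1r, gave -0.30, limma-voom -0.13 and the replicate block -0.11.

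With the replicate block 2 genes were called higher and 2 lower, and 0 members. The labels do not say that replicate numbers pair the mice, and the deviations of same-numbered libraries had a Pearson correlation of 0.096 across 16310 tested genes, which are not independent replicates. Same-numbered libraries deviated in the same direction for 6 of 10 members and 49.4% of tested genes. Depth limits Igf1r, Socs2 and Igfbp2 in replicates 1, each with fewer than 60 counts in at least 1 library.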

Other observations

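The length behind the deposited FPKM bears on the order of the members. In 97.8% of the 14371 genes that reached 10 counts in each library, it equalled the summed length of all distinct annotated exons in GENCODE M21 within 1%, in which overlapping exons are counted more than once. It equalled the merged exon length for 18.2%. For Igfals the FPKM length was 8464 bp against 3167 bp of merged exons, and for Igfbp1 both were 1525 bp. The median of Igfals was 2.80 in deposited FPKM and 7.48 over merged exons, which moved it from rank 8 to rank 7 among the members. The comparison between groups within a gene does not depend on this length. The merged exon length was added after seeing the data.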
